A study of Mus musculus with 6 samples.

Results

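The genes of the bone morphogenetic protein (BMP), transforming growth factor beta (TGF-beta) and activin pathways were taken from a table of mouse taste cell expression by their names. A gene was a member when its symbol was that of a numbered BMP, growth differentiation factor (GDF), SMAD, TGF-beta or TGF-beta receptor, of a BMP or activin receptor, or of an inhibin beta subunit, or when it was Nog, Fst or Grem1. This gave 53 of the 23361 genes in the table. Of these, 50 are ligands, receptors, SMADs or secreted antagonists of the pathways. Bmp1, Bmp2k and Tgfb1i1 are none of these and were counted as matching by name only. The rule itself uses names and no measured value, though it was set with earlier results of these data known.

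Taste cells were isolated with enzyme from the circumvallate and foliate (CV/Fol) papillae of C57BL/6 mice aged 2 months or 6 months, with 3 libraries per age and no treatment or transgene in either group. Each library came from a pool of several mice, with more mice per pool at 2 months than at 6 months, and the RNA of both ages was isolated at the same time. Expression is given in FPKM, the number of sequenced fragments scaled to both the length of the transcript and the size of the library, so levels of different genes can be set side by side. The deposited table holds 1 authors' value per age for each gene, computed over the 3 libraries, so no SD and no test of replicates could be computed for any comparison here, and the sequencing depth is unknown. A p-value of the authors' own comparison stands beside the values and was not used.

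Ligands of this superfamily are secreted dimers that bring type II receptors, which are constitutively active kinases, together with type I receptors. The type I receptor then phosphorylates receptor-regulated SMADs at their carboxyl end, SMAD1, SMAD5 and SMAD9 in the BMP arm and SMAD2 and SMAD3 in the TGF-beta and activin arm, and these enter the nucleus with SMAD4. Secreted antagonists such as noggin and follistatin hold ligands away from their receptors, and in the embryonic tongue BMPs and these antagonists shape the size and spacing of taste papillae.

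The coding ends of 4 of the 5 receptor-regulated SMADs, all but Smad2, are shown because the arms of the pathway are told apart by these closely related genes, and because the receptors act on exactly this stretch. Each run holds the last 36 coding bases before the stop codon, 5′ to 3′, from the GENCODE M21 transcripts of GRCm38, and the capitals mark the last 12 bases, the end that type I receptors phosphorylate.
Smad1: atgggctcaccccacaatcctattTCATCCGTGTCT
Smad5: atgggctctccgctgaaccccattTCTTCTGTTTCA
Smad9: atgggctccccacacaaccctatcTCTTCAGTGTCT
Smad3: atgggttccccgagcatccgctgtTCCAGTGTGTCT
Smad1 and Smad5 shared 26 of the 36 bases, Smad1 and Smad9 shared 30, and Smad5 and Smad9 shared 27. Smad3, of the other arm, shared 21 to 22 bases with each of these 3 genes. For Smad1, which has 2 coding transcripts with different ends, the longer one is shown.

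The coding ends of Inhbb and Bmp6, the ligand genes with the highest FPKM, are shown in the same way, with capitals on the TGT and TGC codons, which encode the cysteines typical of the mature end of this ligand family.
Inhbb: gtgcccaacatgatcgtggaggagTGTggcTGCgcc
Bmp6: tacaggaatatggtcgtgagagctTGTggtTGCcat
The 2 ligands shared 19 of 36 bases, and both carried the pair of cysteine codons at the same place. Reads of 50 bases would tell nearly all of the 53 members apart, since only 3 pairs of members shared any stretch of 50 bases in their annotated transcripts. Bmp8a and Bmp8b shared 210 such stretches, 8.74% of those in Bmp8a and 5.50% of those in Bmp8b, while Bmp4 and Inhbe shared 3 and Gdf10 and Grem1 shared 2.

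Counting a gene as expressed when the mean of its 2 ages was at least 1 FPKM, 31 of the 53 members were expressed, against 12652 of all 23361 genes. A further 16 members had values above 0 but a mean under 1 FPKM, and 6 were listed at 0 in both ages. The expressed members were 4 of 20 BMP and GDF ligands, 3 of 3 TGF-beta ligands, 2 of 4 activin and inhibin beta subunits, 6 of 7 type I receptors, 4 of 4 type II receptors, the co-receptor Tgfbr3, 4 of 5 receptor-regulated SMADs, Smad4, both inhibitory SMADs, 1 of 3 secreted antagonists and the 3 genes that matched by name only. The receptor and SMAD layers were thus expressed nearly whole, and most of the unexpressed members were ligands.

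Between 2 and 6 months the members were close to level. Change is the 6 month value minus the 2 month value on a log2(FPKM + 1) scale, on which the change of low genes is understated, and a gene was counted as higher or lower when it differed by at least 1.5-fold on that scale. None of the 31 expressed members was higher by this measure, where 1.05% of all expressed genes were, and none was lower, where 1.72% of all expressed genes were. With a looser limit, where the higher of the 2 ages exceeds the lower by at least 25% on the same scale, 0 members were higher, against 2.95% of all expressed genes, and 1, Fst, was lower, which is 3.23% of the members against 4.23% of all expressed genes. The share past either limit is small among all genes, so a count of 0 or 1 in 31 does not set the members apart.

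The median change of the 31 expressed members was 0.04, with quartiles of -0.05 and 0.09, against -0.01 over all expressed genes, with quartiles of -0.10 and 0.08. Values were higher at 6 months for 18 members and lower for 13, or 19 and 12 after scaling the ages to the same upper quartile, under which only Smad1 changed sign. Before scaling, 41.9% of the members were lower, beside 53.7% of all expressed genes (5854 higher and 6798 lower). The split of all expressed genes after scaling was not computed. A change of at most 0.1 in either direction was seen in 20 of 31 members (64.5%) and in 53.5% of all expressed genes. Among genes between 5 and 40 FPKM, where most of these members lie, it was 15 of 23 members (65.2%) and 57.3% of 7030 genes. The summed FPKM of the expressed members was 358.6 at 2 months and 359.5 at 6 months.

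**Figure D1:**
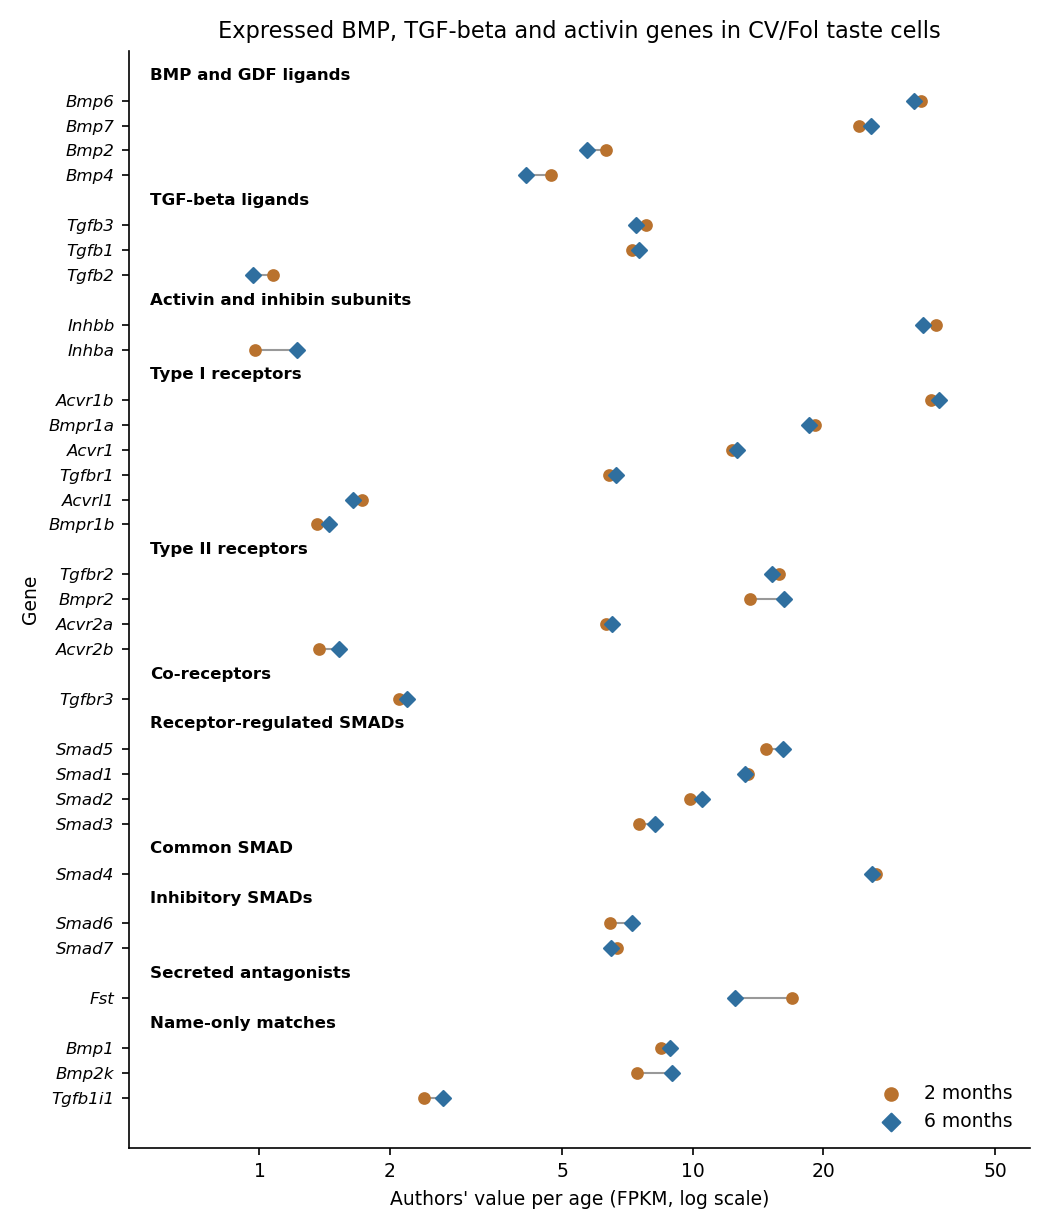
FPKM per age, on a log axis, of the 31 expressed members, grouped by role, with circles for 2 months, diamonds for 6 months and a line joining the ages of one gene. Each point is the authors' 1 value per age, without an error. The symbols of most genes touch or overlap, and the longest line among genes above 10 FPKM is that of Fst, from 17.0 at 2 months to 12.5 at 6 months.

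Among the BMP and GDF ligands, Bmp6 and Bmp7 had the highest levels and the rest were low or near 0. Bmp6, a BMP also known for the control of iron balance, was at 33.6 FPKM at 2 months and 32.4 at 6 months. Bmp7, which acts in kidney, eye and epithelial development, was at 24.2 and 25.8 FPKM. The closely related ligands Bmp2 and Bmp4 lay well below these, Bmp2 at 6.32 and 5.69 FPKM and Bmp4 at 4.70 and 4.11 FPKM. The changes of the 4 genes were -0.05 for Bmp6, 0.09 for Bmp7, -0.13 for Bmp2 and -0.16 for Bmp4, with a median of -0.09, and 27.5% of all expressed genes had a larger change in either direction than Bmp4. The order Bmp6, Bmp7, Bmp2, Bmp4 was the same in both ages, though without values per library no spread is at hand to say which neighbours in it differ.

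Bmp6 and Bmp7 together held most of the transcripts of the group. Of the summed FPKM of all 20 BMP and GDF genes, 71.9 at 2 months and 71.4 at 6 months, Bmp6 made up 46.8% and 45.4% and Bmp7 33.7% and 36.2%. Bmp2 made up 8.79% and 7.97%, and Bmp4 6.54% and 5.76%. These are shares of transcripts in bulk cells, where fewer cells of a type and less RNA per cell cannot be told apart.

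The other 16 BMP and GDF genes were under a mean of 1 FPKM. Bmp3, a ligand that opposes other BMPs, lay just below the limit at 0.893 and 1.01 FPKM. Bmp5 was at 0.325 and 0.625 FPKM, Gdf15, a stress-responsive ligand, at 0.519 and 0.265 FPKM, Gdf3 at 0.394 and 0.531 FPKM and Gdf5 at 0.373 and 0.391 FPKM. Gdf11, Gdf1, Gdf9, Bmp8b, Bmp8a and Gdf7 ranged from 0.00836 FPKM, for Bmp8a at 2 months, to 0.244 FPKM, for Gdf11 at 2 months. Bmp10, Bmp15, Gdf10, Gdf2 and Gdf6 were listed at 0 in both ages. Of these, Bmp15 and the low Gdf9 (0.0959 and 0.0609 FPKM) are known as factors of the oocyte, and Gdf2 and Bmp10 as circulating ligands of the receptor encoded by Acvrl1.

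Some of these low values may be shared with overlapping genes. The sources used here do not state whether the counting used strand, which could not separate genes on the same strand. All exon bases of Gdf1 lie within exons of Cers1 on the same strand, itself at only 0.0457 and 0.0160 FPKM. On the opposite strand, 46.7% of those of Bmp5 overlap Gm26903 and 40.3% of those of Gdf5 overlap Gm15557. The overlaps are of GENCODE M21 genes, whereas the authors quantified RefSeq genes, and Gm26903 and Gm15557 have no value among these. Among the well expressed members the overlaps were smaller, as for Bmp6, where 5.74% of exon bases overlap Txndc5, itself at 66.9 and 65.5 FPKM. Low members also had small overlaps with well expressed genes on the opposite strand. These were 4.67% of the exon bases of Gdf1 with Upf1 (37.7 and 39.9 FPKM) and 3.43% of those of Bmp8b with Ppie (33.6 and 30.4 FPKM). In all, 17 of the 53 members shared exon bases with another annotated gene.

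The 3 TGF-beta ligands were all expressed, at lower levels than Bmp6 and Bmp7. Tgfb3 was at 7.80 FPKM at 2 months and 7.38 at 6 months, and Tgfb1 at 7.25 and 7.54 FPKM. Tgfb2 stood just above the limit for expression, at 1.08 and 0.964 FPKM. Tgfb3 had the larger share of the summed FPKM at 2 months (48.4% against 45.0% for Tgfb1) and Tgfb1 at 6 months (47.5% against 46.5%), so their order turned on changes of only -0.07 and 0.05. Tgfb2 held 6.68% and 6.07%.

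Activin expression in these preparations was nearly all of the beta B subunit. Inhbb, which forms activin B as a homodimer and inhibin B with the alpha subunit, was the ligand gene with the highest level at both ages, at 36.5 FPKM at 2 months and 34.0 at 6 months, a change of -0.10. Inhba, the beta A subunit, was at 0.976 and 1.22 FPKM, just inside the limit for expression, with a change of 0.17 that 23.9% of all expressed genes exceeded. Inhbb made up 97.4% and 96.5% of the summed FPKM of the beta subunits. Inhbe was at 0.0161 and 0.0187 FPKM and Inhbc was listed at 0 in both ages, and both are best known from liver. The alpha subunit Inha, which is no member and turns beta subunits from activins into inhibins, was at 7.29 and 7.85 FPKM.

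**Figure D2:**
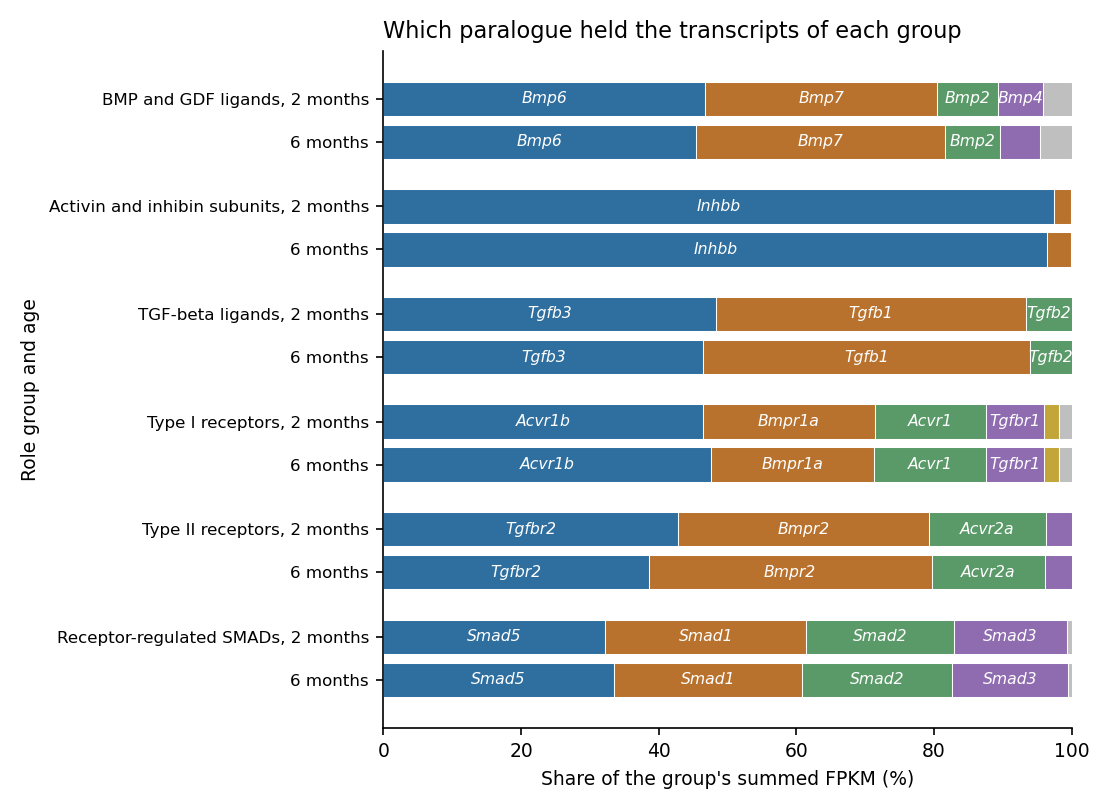
Share in percent that each gene held of the summed FPKM of its role group, at 2 and 6 months, with each bar reaching 100% and segments in the order of mean FPKM. Genes whose segment is too narrow carry no name, and grey sums the genes beyond the fifth and those with a share under 1.5%. Bmp6 and Bmp7 fill most of the BMP and GDF bars, Inhbb fills 97.4% and 96.5% of the activin bars, and Tgfbr2 and Bmpr2 exchange the lead among type II receptors. Each share rests on the authors' 1 value per age, without an error.

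The type I receptors were led by Acvr1b, the receptor of activins and nodal, at 35.4 FPKM at 2 months and 37.1 at 6 months. It was also the member with the highest mean level, at the 80.1th percentile of all expressed genes, beside the 79.6th for Inhbb. The BMP receptor Bmpr1a followed at 19.1 and 18.5 FPKM, then Acvr1, also a BMP receptor, at 12.3 and 12.7 FPKM, and the TGF-beta receptor Tgfbr1 at 6.41 and 6.65 FPKM. Acvrl1, known from endothelium, was at 1.72 and 1.65 FPKM, and Bmpr1b at 1.35 and 1.45 FPKM. Acvr1c was near 0, at 0.0102 and 0.00830 FPKM.

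For all 6 expressed type I receptors the ages differed by less than 0.1, from -0.04 for Acvrl1 and Bmpr1a to 0.06 for Acvr1b, with a median of 0.04. Acvr1b held 46.4% of the summed FPKM of the group at 2 months and 47.5% at 6 months, Bmpr1a 25.1% and 23.8%, Acvr1 16.2% in both, and Tgfbr1 8.39% and 8.52%. Grouped by the SMADs they act on, the receptors of the BMP arm (Bmpr1a, Acvr1, Acvrl1 and Bmpr1b) summed to 34.6 and 34.3 FPKM, and those of the TGF-beta and activin arm (Acvr1b, Tgfbr1 and Acvr1c) to 41.8 and 43.7 FPKM. The BMP arm thus held 45.2% of type I receptor transcripts at 2 months and 44.0% at 6 months.

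Of the type II receptors, Tgfbr2 was at 15.9 and 15.2 FPKM and Bmpr2 at 13.5 and 16.3 FPKM. Bmpr2, the type II receptor of BMPs and GDFs, had the largest upward change of the 31 expressed members, 0.25, which 12.3% of all expressed genes exceeded in either direction. With it the order of these receptors turned, from 42.7% Tgfbr2 and 36.5% Bmpr2 of the summed FPKM at 2 months to 38.5% and 41.1% at 6 months. No spread between libraries is at hand to say whether Tgfbr2 and Bmpr2 differ at either age. Acvr2a, which serves both activins and BMPs, was at 6.32 and 6.51 FPKM, and the similar Acvr2b at 1.38 and 1.52 FPKM. Part of the value of Acvr2a may belong to Orc4 on the opposite strand (10.7 and 9.83 FPKM), with which it shares 7.84% of its exon bases. The co-receptor Tgfbr3, or betaglycan, which presents TGF-beta 2 and also binds inhibins, was at 2.1 and 2.2 FPKM.

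SMAD transcripts were present for both arms. In the BMP arm, Smad5 was at 14.8 FPKM at 2 months and 16.2 at 6 months, Smad1 at 13.4 and 13.2 FPKM, and Smad9, the third SMAD of this arm, at only 0.312 and 0.259 FPKM. In the TGF-beta and activin arm, Smad2 was at 9.84 and 10.5 FPKM and Smad3 at 7.51 and 8.17 FPKM. The changes were 0.12 for Smad5, -0.02 for Smad1, 0.09 for Smad2 and 0.11 for Smad3, with a median of 0.10. The BMP arm held 62.1% of the summed FPKM of receptor-regulated SMADs at 2 months and 61.3% at 6 months, so among SMADs the BMP arm had the larger share and among type I receptors the TGF-beta and activin arm. Smad1 and Smad9 had the most alike coding ends of those printed above, yet Smad1 was above 13 FPKM and Smad9 below 1 FPKM in both ages.

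Smad4, the partner of all receptor-regulated SMADs, was at 26.6 and 25.9 FPKM, above each of them. The inhibitory SMADs, which block the receptors and are themselves targets of the pathway, were close to each other, Smad6 at 6.44 and 7.23 FPKM and Smad7 at 6.69 and 6.49 FPKM. Smad6, which acts mainly on the BMP arm, had a change of 0.14, and Smad7, which acts on both arms, one of -0.04. Smad7 held 50.9% of their sum at 2 months and Smad6 held 52.7% at 6 months.

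Fst was the expressed member with the largest change with age. It encodes follistatin, which binds activins almost irreversibly and BMPs less tightly, and was at 17.0 FPKM at 2 months and 12.5 at 6 months. The 6 month value was 0.736 of the 2 month value and the change was -0.41, which 4.69% of all expressed genes exceeded in either direction. Set against the activin subunits it binds, the ratio of Fst to the sum of Inhba and Inhbb was 0.454 at 2 months and 0.356 at 6 months, with the lower ratio coming from Fst and not from the subunits, whose sum was 37.5 and 35.2 FPKM. The spread of Fst between libraries is unknown, so whether the pools of the 2 ages overlapped cannot be said. The other antagonists among the members were near 0, Nog (noggin) at 0.0560 and 0.00826 FPKM and Grem1 (gremlin) at 0.0126 and 0 FPKM.

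**Figure D3:**
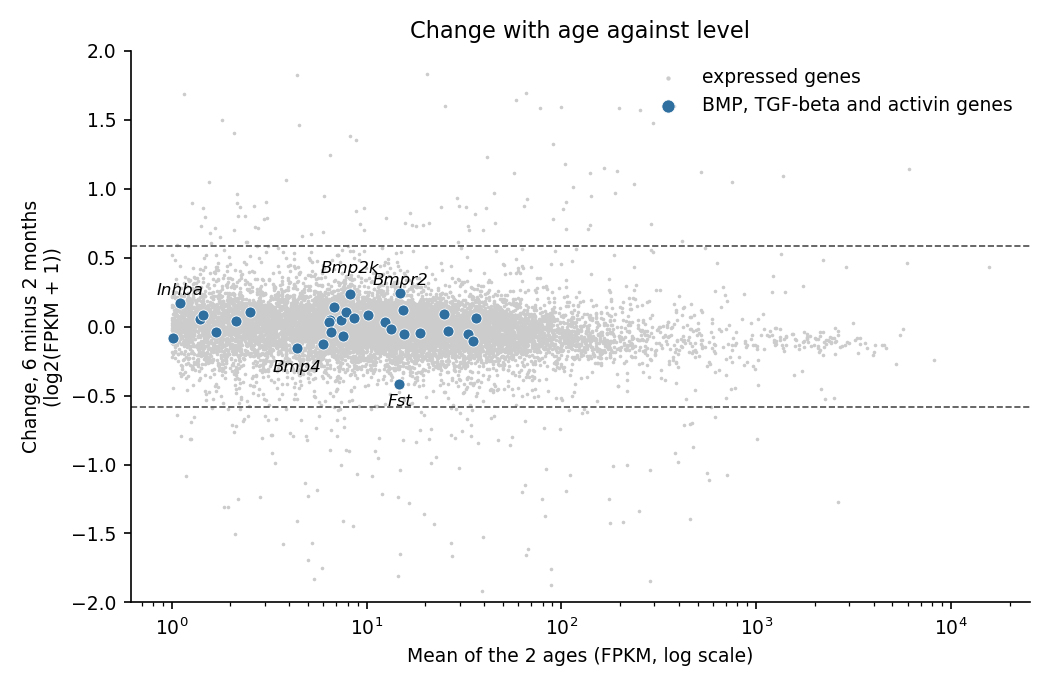
Change with age on the log2(FPKM + 1) scale, 6 minus 2 months, against the mean FPKM of both ages on a log axis, for all 12652 expressed genes in grey and the 31 expressed members in blue. Dashed lines mark 1.5-fold, and 112 genes lie outside the plotted range of 2 in either direction. All blue points lie between the dashed lines, with Fst lowest at -0.41 and Bmpr2 highest at 0.25.

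Other cell types in the preparations were read from marker lists. Taste cell markers were present, with summed FPKM of 212.4 at 2 months and 219.4 at 6 months for 5 type II cell genes, 31.3 and 36.3 for 5 type III cell genes, and 89.6 and 75.1 for 4 type I cell genes, 3 of them expressed. At 6 months 3 type II genes were higher and 2 lower, all 5 type III genes were higher, and 1 type I gene was higher and 3 lower. None of these passed 1.5-fold, though the type I gene Aqp5 (13.5 and 8.69 FPKM, -0.58) lay close to it. Basal keratinocyte genes were abundant (3734.9 and 3770.3, 5 of 5 expressed), with 3 higher and 2 lower at 6 months and none past 1.5-fold. Their similar sums hold opposite changes, as Krt5 was at 2179.8 and 1961.7 FPKM and Krt14 at 1286.9 and 1533.0 FPKM. All 6 measured genes of cornifying keratinocytes were lower at 6 months, 4 of them past 1.5-fold, with sums of 2411.1 and 1529.3 FPKM. The 7 genes of the glands of von Ebner summed to 83.9 and 14.9 FPKM, nearly all of it Lipf, with Bpifb9b, Prol1 and Lcn3 at 0 in both ages. The 8 skeletal muscle genes were all higher at 6 months, 5 of them past 1.5-fold, with sums of 13.3 and 26.5 FPKM. Leukocyte genes summed to 403.9 and 367.6 FPKM over 7 genes, with 5 higher and 2 lower at 6 months. Most of that sum was Lyz2, at 293.3 and 253.7 FPKM. Schwann cell and nerve genes summed to 19.4 and 18.2 over 5, with 1 higher and 4 lower, most of it Mbp (16.2 and 16.0 FPKM). Endothelial genes summed to 6.70 and 6.05 over 9, with 2 higher and 7 lower. The part of these differences in the lower value of Fst or in any other member's value was not tested. All levels are of the whole preparation, so no member's level can be assigned to taste cells or to keratinocytes.

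The 3 genes that matched by name only were all slightly higher at 6 months. Bmp1, a secreted protease that trims procollagens and cleaves the BMP antagonist chordin, was at 8.46 and 8.86 FPKM. It thus acts on the pathway, and its place in this group is a choice of grouping. Bmp2k, an intracellular kinase named for its induction by BMP2, was at 7.45 and 8.98 FPKM, a change of 0.24 that 12.9% of all expressed genes exceeded, and shares 14% of its exon bases with Paqr3 on the opposite strand. Tgfb1i1, an adaptor protein of focal adhesions, was at 2.40 and 2.66 FPKM. Without these genes 28 members were expressed.

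The members lie on many chromosomes. Counting only members that directly follow each other along a chromosome, 8 pairs are within 500 kb in GRCm38. Fst lies on chromosome 13 at 114452290 to 114458951, Bmp6 on chromosome 13 at 38345107 to 38500302, Bmp7 on chromosome 2 at 172868012 to 172940321, Inhbb on chromosome 1 at 119415465 to 119422248 and Bmpr2 on chromosome 1 at 59763400 to 59879014. Neighbouring members could differ widely in level. Acvrl1 (chromosome 15, 101128522 to 101145336) ends 28.7 kb from Acvr1b (chromosome 15, 101174067 to 101213684), whose FPKM was 20.6-fold higher at 2 months and 22.5-fold higher at 6 months. Acvr1c (chromosome 2, 58267453 to 58357895), near 0, lies 30.7 kb from Acvr1 (chromosome 2, 58388644 to 58567157), which was above 12 FPKM in both ages. Other neighbours were alike, as Smad3 (chromosome 9, 63646767 to 63757994) and Smad6 (chromosome 9, 63953076 to 64022059), 195.1 kb apart, where Smad3 was 1.17-fold higher at 2 months and 1.13-fold at 6 months. Inhbe and Inhbc, 1.91 kb apart, and Gdf10 and Gdf2, 3.06 kb apart, were low or at 0 together.

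Of 107 other genes of these pathways, 106 were in the table and 70 were expressed. None of the 70 was higher at 6 months by 1.5-fold or more, and 3 were lower (4.29%, against 1.72% of all expressed genes): Thbs1, Dcn and Bgn. The lists were chosen with earlier results of these data known. Their shares beside those of all genes, here and for the single lists below, are therefore description and not independent evidence. The median change of the 70 genes was -0.02, beside 0.04 for the expressed members and -0.01 for all expressed genes. All 3 lower genes lay close to the limit, and after upper-quartile scaling only Thbs1 stayed past it.

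Among the other secreted antagonists, 8 of 22 were expressed, and 6 of these (75%, against 53.7% of all expressed genes) had lower values at 6 months, with a median change of -0.19. Dcn (decorin) and Bgn (biglycan), small matrix proteoglycans that bind TGF-beta, were the lowest of them, Dcn at 42.0 and 27.3 FPKM (-0.60) and Bgn at 2.14 and 1.09 FPKM (-0.59). Dcn is also a fibroblast gene and carried most of the summed fibroblast markers, 43.7 and 28.8 FPKM. The collagen genes of that list were near 0, with Col1a1 at 0.134 and 0.0599 FPKM, and only 2 of its 8 genes, Dcn and Pdgfra, were expressed. Twsg1, which binds BMPs together with chordin, was level at 37.5 and 38.0 FPKM, and Nbl1, a DAN family antagonist of BMPs, was at 33.0 and 29.2 FPKM (-0.17).

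Of the genes for latency and activation of TGF-beta, 10 were expressed, 5 with higher and 5 with lower values. Thbs1 (thrombospondin 1), a matrix protein that activates latent TGF-beta, was at 23.4 and 14.9 FPKM, a change of -0.62. Ltbp4, a latent TGF-beta binding protein, was at 33.5 and 41.4 FPKM (0.30), and Furin, a protease that cleaves the propeptides of these ligands, at 31.6 and 29.2 FPKM (-0.11). The other expressed ligands were Inha, described above, and Lefty1, an inhibitor of nodal signalling, at 3.37 and 3.72 FPKM.

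Among 6 other expressed receptors and co-receptors, the BMP co-receptor Rgma was at 39.9 and 34.8 FPKM (-0.19), Tmeff1 at 20.6 and 19.1 FPKM (-0.11) and Cd109, a co-receptor that dampens TGF-beta signalling, at 10.9 and 14.6 FPKM (0.39). The 27 expressed intracellular regulators split into 14 with higher and 13 with lower values, 17 and 10 after upper-quartile scaling. Among the abundant ones, Stub1, a ubiquitin ligase, was at 86.5 and 86.9 FPKM (0.01), and Ctdsp1, a phosphatase of SMADs, was at 57.3 and 54.1 FPKM (-0.08).

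Most of the target genes of the pathways had lower values at 6 months, and none passed 1.5-fold. Of 17 expressed, 13 had lower and 4 higher values, or 11 and 6 after upper-quartile scaling, and the median change was -0.12. Beside these 76.5% with lower values, 53.7% of all expressed genes had a lower value at 6 months, and their median change was -0.01. Id1 and Id3, BMP targets that restrain differentiation, were at 284.7 and 236.4 FPKM (-0.27) and at 138.6 and 120.1 FPKM (-0.21). Junb, a TGF-beta target that also belongs to the AP1 family, was at 181.5 and 124.7 FPKM (-0.54). These genes answer to many other signals as well, and the list was compared by its counts and median only. It too was chosen with earlier results of these data known.

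**Figure D4:**
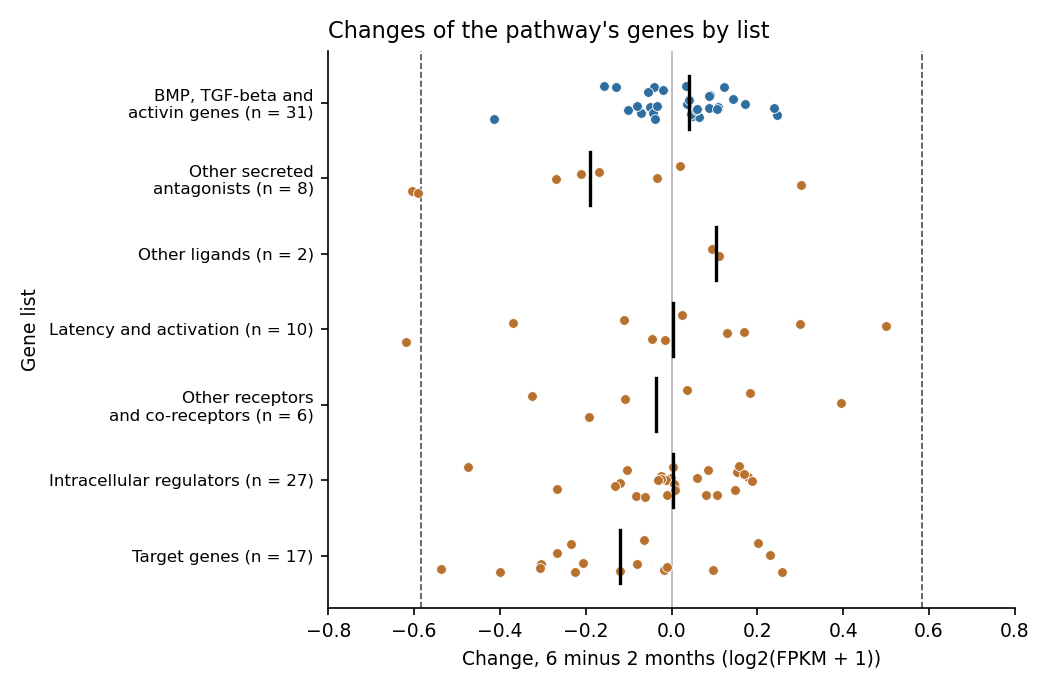
Change with age on the log2(FPKM + 1) scale, 6 minus 2 months, of each expressed gene, for the 31 members in blue and the lists of other pathway genes in orange, with points spread vertically for legibility. Black bars are medians and dashed lines mark 1.5-fold. The members lie around 0.04, the other secreted antagonists have a median of -0.19 and the target genes one of -0.12, and 3 points, Thbs1, Dcn and Bgn, lie past the lower dashed line.

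With the looser limit of 25%, 2 of the 70 other pathway genes were higher and 8 lower. The 2 higher are 2.86%, close to the 2.95% of all expressed genes that were higher by this limit. The 2 higher ones, named after their values were seen, were Lrrc32, which anchors latent TGF-beta to the cell surface (6.94 and 10.2 FPKM, 0.50), and Cd109. Beside Thbs1, Dcn, Bgn and Junb, the lower ones, also named after their values were seen, were the SMAD corepressor Tgif1 (52.3 and 37.3 FPKM, -0.48), the homeobox target Msx2 (3.21 and 2.19 FPKM, -0.40), the latent TGF-beta binding protein Ltbp1 (6.87 and 5.08 FPKM, -0.37) and the decoy receptor Bambi (3.57 and 2.65 FPKM, -0.33). Their 8 of 70 is 11.4%, where 4.23% of all expressed genes were lower by this limit. Because the lists were chosen with earlier results of these data known, this difference is description only.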

How the data were processed

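Poly A selected libraries of CV/Fol taste cells, 3 at 2 months and 3 at 6 months, were sequenced by the authors. Reads were aligned by them to the GRCm38/mm10 build (TopHat2 2.0.7), and they quantified RefSeq genes as FPKM with Cufflinks 2.1.1 and compared the ages with Cuffdiff (versions from the submitters' processing notes), and deposited 1 FPKM value per gene and age. The table also holds the unadjusted p-value of the authors' own comparison, which was not used. Of the gene names, 27 read as dates and none of these is a member.

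Here, changes were computed with Python 3.11.15 and pandas 2.3.3 as the difference, 6 minus 2 months, of log2(FPKM + 1), a gene counted as expressed when its ages averaged 1 FPKM or more, and 1.5-fold was the limit for higher or lower. Every member was accounted for. Of the other pathway genes, those past the limit and the 3 of highest mean FPKM in each list were named, except 1 gene that is not reported here. The script was run on the 2 month values with planted changes and no noise, which checks the calculation only and not the spread between libraries. Members and lists were chosen with earlier results of these data known. All 53 members matched a gene symbol in GENCODE M21. Groups follow the labels, though the design text gives the younger age as 3 months in one place. Alternatives were another pseudocount, filter, fold limit and scaling.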

Additional observations from a re-analysis of the deposited data

How the results depend on the processing

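With no filter on low values 47 members were counted in place of 31. With a limit of 25%, 1 member was lower in place of 0, 2 other pathway genes were higher in place of 0 and 8 lower in place of 3. The 3 lower genes became 0 at 2-fold and 1 with upper-quartile scaling, as each lay near the limit. When only genes above 1 FPKM in either age entered the sum, Bmp6 held 48.2% at 2 months and 46.9% at 6 months, and Bmp7 34.7% and 37.4%, because the sum then held fewer genes. The change of Inhba became 0.30 with a pseudocount of 0.1 FPKM. Among the changes recomputed for single members, that of Smad1, -0.02 as reported, turned sign with upper-quartile scaling, to just above 0. The numbers of lower genes in each list were also recomputed with a pseudocount of 0.1 FPKM and with upper-quartile scaling, a check chosen after seeing the data, and the pseudocount left the splits as they were. Upper-quartile scaling moved the median of all expressed genes from -0.01 to 0.01. No paired analysis was possible because each gene has 1 authors' value per age, and for the same reason no library could be left out in turn. Depth is unknown, so no limit of detection can be given for genes at or near 0.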
